A study of Mus musculus with 8 samples.

Results

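ATP-binding cassette (ABC) transporter genes were followed in freshly isolated mouse intestinal crypts, comparing small intestine (SI) with colon (COL). The genes were taken by name: every protein-coding gene in the deposited count table whose mouse symbol is Abca to Abcg followed by a number, which gave 50 of 45706 gene identifiers. They were 16 genes of subfamily A, 10 of B, 10 of C, 4 of D, 1 of E, 3 of F and 6 of G. The rule used no measured value. Tap1, Tap2 and Cftr belong to the superfamily under other symbols and are given separately.

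The study behind these libraries concerned oncogenic signalling in SI and COL organoids, and the samples used here are crypts taken directly from tissue. Total RNA was sequenced from SI and COL crypts of 4 wild-type C57BL/6N mice, 2 female and 2 male, with 1 library per tissue and mouse and therefore 4 libraries per group. The labels name no engineered allele, transgene or agent for either group and no age. The study's protocol for crypts that found organoids took the proximal part of the SI and scraped its villi off beforehand, and does not say whether the same was done for these samples. The same protocol released crypts with EDTA, which loosens the epithelium from the tissue below. Libraries were made from isolated crypts, so each held a mixture of crypt cell types. Libraries are written as SI1 to SI4 and COL1 to COL4. Libraries with the same number came from the same mouse, mice 1 and 4 of this numbering being female and mice 2 and 3 male.

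ABC transporters use the energy of ATP hydrolysis to move substrates across membranes, and most of them export from the cell or move cargo into an organelle. In the gut epithelium, transporters of the apical membrane return plant sterols, drugs and conjugated toxins to the lumen, and those of the basolateral membrane pass cholesterol and organic anions towards the blood. Members of subfamily D serve peroxisomes and lysosomes, several of subfamily B serve mitochondria, and those of E and F lack membrane-spanning segments and act in translation.

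Promoter windows of RefSeq (250 bases before to 50 after a start site, assembly GRCm38.p6) matched 38 of the 50 genes in 45 windows. Sequences of the genes with the 3 highest SI to COL ratios, Abcg8, Abcc2 and Abcg5, are shown. Abcg5 and Abcg8 lie head to head on chromosome 17, with 109 bases between the Abcg5 start site at 84683011 on the minus strand and an Abcg8 start site at 84683121 on the plus strand, so that a single window covers both. Capitals mark every match, on either strand, to 6 short motifs. The core bound by GATA factors was searched as AGATAA, that of the homeodomain factors CDX as TTTATNG, the half-site of nuclear receptors as AGGTCA and the core of the hepatocyte factor HNF4 as CAAAGTCCA. The promoter element known as the GC box was searched as GGGCGG. The TATA box, which positions the polymerase, was searched with the letters TATAAA. The windows are chr17:84682871-84683170 and chr19:43782058-43782357, both printed 5′ to 3′ on the plus strand.
Abcg5 to Abcg8: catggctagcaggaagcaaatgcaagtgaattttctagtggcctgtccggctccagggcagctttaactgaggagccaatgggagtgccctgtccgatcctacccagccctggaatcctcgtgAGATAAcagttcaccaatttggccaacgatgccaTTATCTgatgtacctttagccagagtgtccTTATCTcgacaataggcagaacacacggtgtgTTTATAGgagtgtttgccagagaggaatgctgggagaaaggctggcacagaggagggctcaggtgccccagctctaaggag
Abcc2: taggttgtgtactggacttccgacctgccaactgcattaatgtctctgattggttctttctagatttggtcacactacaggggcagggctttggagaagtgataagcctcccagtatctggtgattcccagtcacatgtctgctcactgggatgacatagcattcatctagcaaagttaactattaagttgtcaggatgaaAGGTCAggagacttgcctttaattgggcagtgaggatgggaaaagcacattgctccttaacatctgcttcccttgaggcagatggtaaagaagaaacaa
The window between Abcg5 and Abcg8 held 3 GATA core matches, at -127, -93 and -63 bases from the Abcg8 start site, and 0.107% of all 32851 windows held at least 3. Its CDX core match overlapped a TATA box match by position. The Abcc2 window held 1 nuclear receptor half-site and no other match. Over all member windows, the GATA core was present in 6 of 45 (13.3%, against 11.2% of all windows), the CDX core in 6 (13.3%, against 10.9%), the half-site in 7 (15.6%, against 16.3%), the TATA box in 7 (15.6%, against 13.6%) and the GC box in 21 (46.7%, against 35.7%). The Abcg5 and Abcg8 windows overlap, so their shared GATA, CDX and TATA matches entered these counts once for each gene. The HNF4 core was present in 1 member window, that of Abcd3 (2.22%, against 0.475%). A match describes the letters of a window and is not a measured binding site.

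Total counts ranged from 15969428 to 32908060 per library, of which the 50 genes took 20015 to 94055 (0.125% to 0.334%). Levels are given as CPM, counts per 1000000 counts of a library after TMM scaling, whose factors were 0.73 to 0.80 in SI and 1.01 to 1.45 in COL. Mitochondrial genes took 4.83% to 7.35% of counts in COL3, COL4, SI1 and SI4. In the remaining 4 libraries they took 22.7% to 50.8%. In SI the low-share libraries were both female and the high-share libraries both male, so sex and mitochondrial share cannot be told apart there. Markers bore out the tissue label of every library, since 5 small intestine markers summed to 33343 to 72817 CPM in SI and 202 to 853 in COL, and 5 colon markers to 166 to 562 and 3770.4 to 30777 CPM. All 5 small intestine markers were higher in SI, and 4 of 5 colon markers higher in COL. Slc26a3 did not pass (log2 fold change -0.57, adjusted p = 0.358 by edgeR). Car1 held 2632 to 30001 CPM of the colon marker sum in COL. Other cell types also moved with tissue. All 5 villus enterocyte markers were higher in SI (26165 to 73944 against 24.9 to 116 CPM in sum), as were 4 of 5 Paneth cell markers (382 to 1903 against 17.7 to 82.3) and 2 of 4 tested T and B cell markers (31.2 to 73.4 against 9.25 to 30.1). Of 4 goblet cell markers 1 was higher in COL (2064 to 7160.1 CPM in SI against 10682 to 18739.9), as were both tested red cell genes (0.0458 to 0.710 against 3.34 to 34.9) and Pecam1, the 1 tested gene of 4 endothelial and pericyte markers (the 4 summed to 0.203 to 4.65 against 1.26 to 5.90). Of the general epithelial markers, 1 of 4 was higher in SI (6165 to 11441 against 2779.6 to 7101), while the 3 tested macrophage markers (2.74 to 7.60 against 3.17 to 8.92) and the 4 tested stromal markers (3.30 to 11.4 against 4.52 to 10.3) did not pass edgeR's test. No list held a marker at 0 in every library. The part of these cell types in the differences below was not tested, and in whole crypts more cells of a type and more RNA per cell cannot be told apart.

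Crypts of SI carried far more transcript of the sterol exporters Abcg5 and Abcg8 and of the apical conjugate pump Abcc2 than crypts of COL, by 149-fold to 303-fold. Crypts of COL carried more Abca12, Abcc1, Abcc4 and Abcc8, by 7.32-fold to 27.4-fold. The drug pump Abcb1a was abundant in both tissues. Of the 50 genes, 34 passed the filter on low counts and were tested, and the other 16 were too low in both tissues. At an adjusted p under 0.05 (edgeR's quasi-likelihood test, Benjamini-Hochberg over 14491 genes), 16 of the 34 differed (47.1%, against 28.4% of all genes tested), 12 of them higher in SI (35.3%, against 15.5%) and 4 higher in COL (11.8%, against 12.9%). Scaling by library size alone moved the median over all 14491 genes from -0.089 to -0.82 (log2 fold change) and gave 8 members higher in SI and 8 higher in COL. Within the 4 libraries of high mitochondrial share 12 of the 16 calls were kept (Abca2, Abcc6, Abcc8 and Abcd4 were lost), and within the 4 of low share all 16. Within the low share, Abcc3 and Abca8b were also called higher in COL and Abcb9 higher in SI. The median over the tested members was 0.37 with TMM (23 above 0 and 11 below) and -0.36 with library size alone. The filter keeps a gene on the counts of a single tissue, so these shares are a description of the genes that passed. The 4 SI and 4 COL libraries did not overlap for 18 of the 34 (52.9%, against 33.5% of all genes), namely the 16 called genes and 2 others, Abca7 and Abcf1. Between tissues, the 12 members higher in SI shared their direction with the called villus enterocyte, Paneth and T and B cell markers above. The 4 higher in COL shared theirs with Pecam1, both tested red cell genes and Muc2, the 1 goblet marker of 4 that was called. Of the uncalled goblet markers, Tff3 (log2 fold change 0.86) and Fcgbp (0.66) leaned to SI and Clca1 (-0.79) to COL. A shared direction follows from the calls alone, and within SI the marker sums went apart. SI1 held the highest villus enterocyte sum (73944 CPM) and the lowest Paneth sum (382 CPM). The p-values of these calls measure the spread between libraries within each tissue, which came from 4 mice and also differed in mitochondrial share. The fit behind them held no term for the mouse, so SI and COL libraries of the same mouse were taken as independent.

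**Figure D1:**
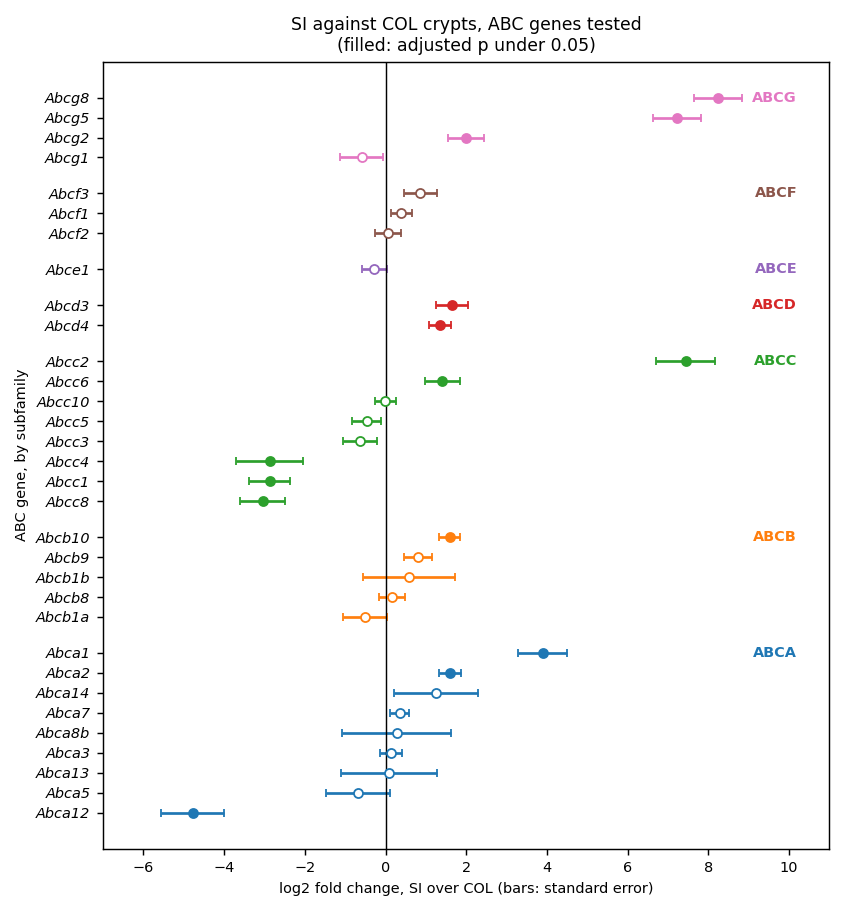
Log2 fold change of SI over COL (x axis, log2 scale; points are edgeR estimates and bars their standard errors) for 32 of the 34 tested ABC genes, grouped by subfamily on the y axis, with filled points past an adjusted p of 0.05. The points run from -4.78 for Abca12 to 8.24 for Abcg8, with the filled points of subfamilies D and G to the right of 0; with library size alone the fold changes of 8 uncalled genes near 0 changed sign.

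Abcg5 and Abcg8 together form the transporter that returns plant sterols and cholesterol to the gut lumen. Abcg5 (chromosome 17, 84658234 to 84683011, minus strand, GRCm38) stood at 361, 343, 288 and 415 CPM in SI1 to SI4 and at 0.704, 4.60, 2.22 and 2.07 CPM in COL1 to COL4. The lowest SI library was far above the highest COL library, and Abcg5 was 149-fold higher in SI (log2 fold change 7.22, SE 0.59, adjusted p = 1.45e-05 by edgeR). Abcg8 (chromosome 17, 84676302 to 84700333, plus strand) gave 543, 290.0, 293 and 529 CPM in SI and 0.557, 2.30, 0.990 and 1.70 CPM in COL. It had the highest fold change of the 34 genes, 303-fold (log2 fold change 8.24, SE 0.59, adjusted p = 8.57e-06 by edgeR). In COL the pair rested on 24 to 99 counts per library for Abcg5 and 19 to 81 for Abcg8. Annotated exons of both genes overlap on opposite strands, and the strand setting of the counting was not given, so reads from that stretch cannot be assigned. The log2 ratio of Abcg5 to Abcg8 counts was -0.59, 0.24, -0.025 and -0.35 in SI1 to SI4 and 0.33, 0.99, 1.15 and 0.29 in COL1 to COL4. The ratio was lower in SI in 4 of 4 mice (mean -0.18 ± 0.37 against 0.69 ± 0.45, SD, n = 4; exact two-sided permutation p = 0.0286, the smallest that 70 assignments allow, and 0.0381 adjusted over 4 ratios). It was lost on leaving out any of 5 libraries: the exact permutation p was 0.114 without SI1, 0.0857 without SI4, and 0.0571 without SI3, COL2 or COL3.

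Abca1 and Abcg1, which load cholesterol onto lipoproteins and are classical targets of the liver X receptors, went apart. Abca1 (chromosome 4, 53030787 to 53159895, minus strand) gave 34.1, 55.2, 84.2 and 76.5 CPM in SI and 2.41, 10.8, 2.35 and 1.68 CPM in COL. COL2 was the highest COL library but stayed below every SI library, and Abca1 was 14.9-fold higher in SI (log2 fold change 3.89, SE 0.61, adjusted p = 0.000719 by edgeR). Without COL2 the log2 fold change was 4.87. For Abcg1 (chromosome 17, 31057675 to 31117988, plus strand) the values were 4.98, 1.51, 1.47 and 1.19 CPM in SI and 2.93, 3.67, 4.09 and 3.14 CPM in COL, with SI1 above all other libraries and SI2 to SI4 below every COL library. That difference did not pass the test (log2 fold change -0.59, SE 0.53, adjusted p = 0.438 by edgeR). The log2 ratio of Abca1 to Abcg1 counts was 2.77, 5.16, 5.82 and 5.98 in SI and -0.28, 1.54, -0.79 and -0.90 in COL, higher in SI in 4 of 4 mice (mean 4.93 ± 1.48 against -0.11 ± 1.13, SD, n = 4; exact permutation p = 0.0286, adjusted 0.0381). Without COL1, COL3 or COL4 the exact permutation p was 0.0571, although the groups still did not overlap. Of the 5 genes listed as sterol or lipid exporters, 4 were tested, of which 3 were higher in SI and 0 in COL. The fifth, Abcg4, was under the filter.

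The apical efflux pumps Abcc2, Abcg2, Abcb1a and Abcb1b split into a pair that was higher in SI and a pair that did not pass. Abcc2 (chromosome 19, 43782192 to 43840740, plus strand), which exports glutathione and glucuronide conjugates, gave 226, 235, 569.9 and 336 CPM in SI and 0.352, 1.31, 3.29 and 2.83 CPM in COL. There was no overlap, and the difference was 173-fold (log2 fold change 7.44, SE 0.74, adjusted p = 3.60e-05 by edgeR), with 12 to 135 counts per COL library. Abcg2 (chromosome 6, 58584523 to 58695676, plus strand), the breast cancer resistance protein, which exports drugs and urate, stood at 381, 178, 175 and 314 CPM in SI and 33.1, 43.9, 116 and 70.3 CPM in COL. Its lowest SI library was above its highest COL library, COL3, and the difference was 3.98-fold (log2 fold change 1.99, SE 0.45, adjusted p = 0.00637 by edgeR).

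Abcb1a and Abcb1b both encode P-glycoprotein, a pump of broad drug specificity, and Abcb1a is the form known from the mouse gut. Abcb1a (chromosome 5, 8660077 to 8748575, plus strand) reached 155, 248, 609.7 and 554 CPM in SI and 224, 430.0, 1011 and 571 CPM in COL. The groups overlapped widely although SI was lower than COL of the same mouse in 4 of 4 mice, and the difference did not pass the test (log2 fold change -0.51, SE 0.55, adjusted p = 0.523 by edgeR), with a 95% interval of 1.34 to either side on the log2 scale. The log2 fold change of Abcb1a was 0.31 within the libraries of high mitochondrial share and -1.16 within those of low share. Neither was called (adjusted p = 0.764 and 0.215 by edgeR). Abcb1b (chromosome 5, 8798147 to 8866315, plus strand) held 0 to 15 counts per library in SI and 1 to 20 in COL, or 0, 0.785, 0.760 and 0.183 CPM and 0.0293, 0.497, 0.535 and 0.105 CPM (log2 fold change 0.58, SE 1.15, adjusted p = 0.741 by edgeR). The lowest share of Abcb1a in the counts of the pair was 99.7% among SI libraries and 99.9% among COL libraries, and the log2 ratio was 10.49 ± 1.97 and 11.28 ± 1.27 (exact permutation p = 0.543, and the same when adjusted over 4 ratios). Both genes share sequence: 18.6% of the 50-base stretches of the longest Abcb1a transcript and 19.6% of those of Abcb1b also occur in another gene, mostly in each other, so the split of low Abcb1b counts is uncertain.

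Of 7 transporters listed for organic anions and conjugates, 6 were tested, of which 1 was higher in SI and 2 in COL. Abcc3 (chromosome 11, 94343295 to 94392997, minus strand), the basolateral counterpart of Abcc2, stood at 143, 187, 217 and 155 CPM in SI and 145, 141, 484 and 326 CPM in COL. COL1 and COL2 lay within or near the SI range and COL3 and COL4 above it, and the difference did not pass the test (log2 fold change -0.64, SE 0.42, adjusted p = 0.288 by edgeR), although with library size alone Abcc3 was called higher in COL (log2 fold change -1.41, adjusted p = 0.0339 by edgeR). COL1 and COL2 were of high mitochondrial share and COL3 and COL4 of low share. Within the low-share libraries Abcc3 was called higher in COL (log2 fold change -1.45, adjusted p = 0.0112 by edgeR). Within the high-share libraries its sign turned (log2 fold change 0.40, adjusted p = 0.543 by edgeR). The cause of this turn was not tested. The balance of both pumps differed strongly between tissues. Abcc2 took 55.7% to 72.4% of their summed counts in SI and 0.242% to 0.915% in COL. The log2 ratio of Abcc2 to Abcc3 was 0.66, 0.33, 1.39 and 1.11 in SI and -8.63, -6.73, -7.19 and -6.85 in COL, higher in SI in 4 of 4 mice (mean 0.87 ± 0.47 against -7.35 ± 0.88, SD, n = 4; exact permutation p = 0.0286, adjusted 0.0381).

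**Figure D2:**
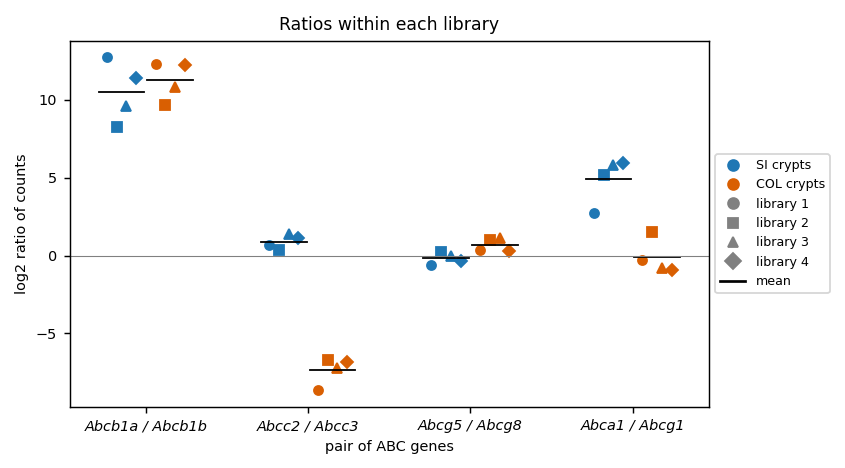
Log2 ratio of counts (y axis, log2 scale) for 4 pairs of ABC genes (x axis) in each of the 4 SI and 4 COL libraries, each point a library and each line a mean. For Abcc2 over Abcc3 the SI points lie near 0.87 and the COL points near -7.35, while the points of Abcb1a over Abcb1b overlap between tissues.

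Abcc1 (chromosome 16, 14361558 to 14475737, plus strand), which exports glutathione conjugates and leukotrienes, gave 0.951, 5.62, 6.39 and 7.37 CPM in SI and 43.3, 30.8, 34.4 and 40.5 CPM in COL. No SI library reached the COL range, and Abcc1 was 7.33-fold higher in COL (log2 fold change -2.87, SE 0.50, adjusted p = 0.00135 by edgeR). Abcc4 (chromosome 14, 118482692 to 118706219, minus strand), an exporter of cyclic nucleotides and prostaglandins, gave 0.0453, 1.09, 2.53 and 0.229 CPM in SI and 9.04, 7.33, 5.54 and 6.53 CPM in COL. It was 7.32-fold higher in COL (log2 fold change -2.87, SE 0.83, adjusted p = 0.0233 by edgeR), with 1 to 50 counts per SI library. The call was lost without SI4 (log2 fold change -2.58, adjusted p = 0.0525) and without COL1 (-2.73, adjusted p = 0.0657).

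Abcc6 (chromosome 7, 45967555 to 46030302, minus strand), whose loss causes ectopic mineralisation, gave 23.2, 29.7, 23.8 and 22.7 CPM in SI and 4.96, 19.6, 7.65 and 5.40 CPM in COL. COL2 came close to the SI range, and Abcc6 was 2.66-fold higher in SI (log2 fold change 1.41, SE 0.43, adjusted p = 0.0279 by edgeR). That call depended on single libraries: the adjusted p by edgeR was 0.0502 without SI2, 0.0550 without SI4, 0.0757 without COL1, 0.0659 without COL3 and 0.0663 without COL4, and 0.000312 without COL2, where the log2 fold change was 2.06. Abcc5 (chromosome 16, 20331303 to 20426394, minus strand), another exporter of cyclic nucleotides, gave 6.52, 10.7, 9.53 and 15.2 CPM in SI and 12.00, 9.70, 23.4 and 12.9 CPM in COL and did not pass (log2 fold change -0.47, SE 0.36, adjusted p = 0.367 by edgeR). Abcc10 (chromosome 17, 46303221 to 46328352, minus strand), a broad drug exporter, gave 23.96, 25.9, 20.8 and 19.5 CPM in SI and 15.7, 30.02, 22.4 and 23.03 CPM in COL (log2 fold change -0.012, SE 0.26, adjusted p = 0.976 by edgeR). Both tissues overlapped for Abcc5 and Abcc10, and with library size alone both were called higher in COL. Abcc12 was under the filter.

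Abcd3 and Abcd4, which serve peroxisomes and lysosomes, were higher in SI. Abcd3 (chromosome 3, 121758774 to 121815302, minus strand), which brings branched-chain and bile acid precursors into peroxisomes, stood at 554, 336, 385 and 664 CPM and 119.8, 87.1, 216 and 201 CPM, without overlap (log2 fold change 1.64, SE 0.40, adjusted p = 0.00944 by edgeR). Abcd4 (chromosome 12, 84601464 to 84617413, minus strand), which is needed for release of cobalamin (a B vitamin) from lysosomes, gave 52.95, 48.8, 28.6 and 51.3 CPM in SI and 14.1, 17.5, 17.7 and 21.5 CPM in COL. Its lowest SI library, SI3, was above the highest COL library, COL4 (log2 fold change 1.36, SE 0.27, adjusted p = 0.00313 by edgeR). With library size alone the log2 fold changes of Abcd3 and Abcd4 were 0.85 and 0.60 and neither was called (adjusted p = 0.134 and 0.116 by edgeR). Abcd2, a fatty acid importer of peroxisomes, was under the filter. Of their partners, Pex19, which delivers proteins to the peroxisome membrane, was higher in SI (log2 fold change 1.51, SE 0.34, adjusted p = 0.00632 by edgeR), and so was Lmbrd1, which works with Abcd4 in lysosomal cobalamin export (log2 fold change 1.46, SE 0.36, adjusted p = 0.0113 by edgeR). Mmachc, which takes up the released cobalamin, was not called (log2 fold change -1.37, SE 0.47, adjusted p = 0.0501 by edgeR), but was higher in COL with the mouse as a block (adjusted p = 0.0286 by edgeR). Pex19 and Lmbrd1 were not called with library size alone (adjusted p = 0.134 and 0.159 by edgeR).

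Among the mitochondrial members, Abcb10 was higher in SI, and Abcb8 was not called. Abcb10 (chromosome 8, 123952459 to 123983122, minus strand), which is needed for haem synthesis, gave 35.2, 27.3, 26.97 and 24.1 CPM in SI and 10.9, 7.77, 9.17 and 9.93 CPM in COL, without overlap (log2 fold change 1.59, SE 0.25, adjusted p = 0.000698 by edgeR). Of the 50-base stretches of its longest transcript, 8.27% also belong to an overlapping antisense gene, Gm45890. Abcb8, a potassium channel subunit of the inner membrane, ranged over 93.3 to 122 CPM in SI and 55.3 to 132 CPM in COL (log2 fold change 0.17, SE 0.32, adjusted p = 0.739 by edgeR). Slc25a37, the mitochondrial iron importer that pairs with Abcb10, was higher in SI (log2 fold change 1.79, SE 0.28, adjusted p = 0.000677 by edgeR), and Fech, which inserts iron into haem, was not called (log2 fold change 0.30, SE 0.37, adjusted p = 0.589 by edgeR). Abcb6, the porphyrin transporter, was under the filter, and 66.8% of its 50-base stretches also lie in the overlapping gene Gm29253.

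Abcb9, a lysosomal peptide transporter related to Tap1 and Tap2, ranged over 8.46 to 19.98 CPM in SI and 5.47 to 10.1 CPM in COL and was not called (log2 fold change 0.80, SE 0.35, adjusted p = 0.110 by edgeR). Without SI2 it passed (log2 fold change 1.01, adjusted p = 0.0445 by edgeR). It also passed within the libraries of low mitochondrial share (log2 fold change 1.04, adjusted p = 0.0220 by edgeR). Within those of high share it did not (log2 fold change 0.32, adjusted p = 0.736 by edgeR). Tap1 and Tap2, which load peptides for antigen presentation, were both higher in SI. Tap1 gave 213, 132, 115 and 218 CPM in SI and 10.9, 6.40, 21.2 and 65.7 CPM in COL (log2 fold change 2.70, SE 0.64, adjusted p = 0.00868 by edgeR). Tap2 gave 153, 62.1, 74.1 and 134 CPM in SI and 9.15, 11.4, 31.00 and 39.4 CPM in COL (log2 fold change 2.22, SE 0.50, adjusted p = 0.00671 by edgeR). Tapbp, which tethers them to the class I molecule, was also higher in SI (log2 fold change 1.66, SE 0.46, adjusted p = 0.0191 by edgeR). That call was lost without SI1, SI4 or COL1 (adjusted p up to 0.0599 by edgeR) and with library size alone (0.170).

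Subfamily A, whose members mostly move lipids, held 9 tested genes of 16, with Abca1 and Abca2 higher in SI and Abca12 higher in COL. Abca2 (chromosome 2, 25428703 to 25448540, plus strand), a lipid transporter of lysosomes, gave 26.5, 16.6, 16.3 and 17.8 CPM in SI and 6.16, 5.90, 6.15 and 7.08 CPM in COL. SI1 was the highest library and the tissues did not overlap (log2 fold change 1.61, SE 0.27, adjusted p = 0.00118 by edgeR). Abca12 (chromosome 1, 71242276 to 71414910, minus strand), which carries ceramides for the skin barrier, gave 0.0453, 1.87, 0.203 and 0.961 CPM in SI and 16.2, 15.8, 29.9 and 21.2 CPM in COL. It was 27.4-fold higher in COL (log2 fold change -4.78, SE 0.78, adjusted p = 0.000856 by edgeR), with 1 to 31 counts per SI library against 254 to 1117 in COL.

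The other 6 tested genes of subfamily A were not called. Abca7, a phospholipid exporter, ranged over 29.99 to 42.9 CPM in SI and 22.4 to 29.5 in COL, without overlap but with an estimate that did not pass (log2 fold change 0.35, SE 0.23, adjusted p = 0.293 by edgeR). Abca3, a lipid transporter best known from lung surfactant, ranged over 29.05 to 43.2 and 20.3 to 36.96 CPM (log2 fold change 0.13, SE 0.27, adjusted p = 0.757 by edgeR), and 14.3% of its 50-base stretches also lie in other genes. Abca5, a lysosomal member, reached 0.181 to 1.69 and 0.691 to 1.55 CPM (log2 fold change -0.68, SE 0.79, adjusted p = 0.559 by edgeR), and Abca14 0.456 to 1.99 and 0 to 0.994 CPM (log2 fold change 1.25, SE 1.05, adjusted p = 0.405 by edgeR). Abca13 and Abca8b were high in a single SI library, SI2: Abca13 stood at 0.181, 1.93, 0.203 and 0 CPM in SI and 0.0880, 1.18, 0.588 and 0.335 CPM in COL (log2 fold change 0.090, SE 1.19, adjusted p = 0.962 by edgeR). Abca8b gave 0, 1.99, 0.0507 and 0 CPM in SI and 0.264, 0.746, 0.348 and 0.314 CPM in COL (log2 fold change 0.28, SE 1.35, adjusted p = 0.896 by edgeR). Without SI2, Abca8b was called higher in COL (log2 fold change -4.32, adjusted p = 0.0216 by edgeR). The same held within the libraries of low mitochondrial share (log2 fold change -6.44, adjusted p = 0.0421 by edgeR). Within those of high share Abca8b was not called (log2 fold change 0.93, adjusted p = 0.724 by edgeR).

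Abcc8 and Abcc9 regulate potassium channels in place of moving a substrate. Abcc8 (chromosome 7, 46104523 to 46180033, minus strand), the sulfonylurea receptor of hormone-secreting cells, gave 0.272, 0.967, 0.608 and 0.641 CPM in SI and 5.75, 2.42, 4.25 and 8.06 CPM in COL. The groups did not overlap and Abcc8 was 8.27-fold higher in COL (log2 fold change -3.05, SE 0.56, adjusted p = 0.00191 by edgeR), with 6 to 16 counts in an SI library and 39 to 385 in a COL library. Abcc9, the form of vascular and other muscle, was under the filter. Cftr, the chloride channel of the superfamily, gave 36.01, 97.2, 111 and 53.2 CPM in SI and 119, 97.02, 99.8 and 92.7 CPM in COL. SI2 and SI3 reached the COL range while SI1 and SI4 lay below it, and the difference did not pass (log2 fold change -0.46, SE 0.35, adjusted p = 0.365 by edgeR), although with library size alone Cftr was called higher in COL (log2 fold change -1.20, adjusted p = 0.0320 by edgeR). Within the libraries of low mitochondrial share Cftr was also called higher in COL (log2 fold change -1.12, adjusted p = 0.0207 by edgeR). Within those of high share it was not (log2 fold change -0.15, adjusted p = 0.831 by edgeR).

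Of the soluble members, which work on ribosomes, 0 of 4 passed the test by edgeR, DESeq2 or limma-voom, and 0 had an unadjusted p under 0.05 by edgeR. Abce1, which splits ribosomes after termination, ranged over 16.9 to 40.4 CPM in SI and 21.3 to 40.01 CPM in COL (log2 fold change -0.27, SE 0.32, adjusted p = 0.560 by edgeR). Abcf1, which aids initiation, ranged over 177 to 229.7 and 130.3 to 163 CPM, without overlap (log2 fold change 0.39, SE 0.26, adjusted p = 0.294 by edgeR). Abcf2 gave 25.3 to 37.2 and 16.1 to 47.1 CPM (log2 fold change 0.064, SE 0.33, adjusted p = 0.905 by edgeR), and Abcf3 51.9 to 97.8 and 14.6 to 60.1 CPM (log2 fold change 0.86, SE 0.41, adjusted p = 0.144 by edgeR). With library size alone the fold changes of Abcf1 and Abcf2 lay below 0 and Abce1 was called higher in COL (log2 fold change -1.05, adjusted p = 0.0447 by edgeR), and with mitochondrial level as a covariate Abcf3 passed (log2 fold change 0.99, adjusted p = 0.0146 by edgeR). Of their partners in translation, Hbs1l, which rescues stalled ribosomes, was higher in SI (log2 fold change 1.15, SE 0.26, adjusted p = 0.00652 by edgeR) and Eif2ak4, a kinase that slows initiation, higher in COL (log2 fold change -2.34, SE 0.61, adjusted p = 0.0145 by edgeR). Hbs1l was not called with library size alone (adjusted p = 0.267 by edgeR). Eif2s1, Gcn1l1 and Pelo were not called.

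**Figure D3:**
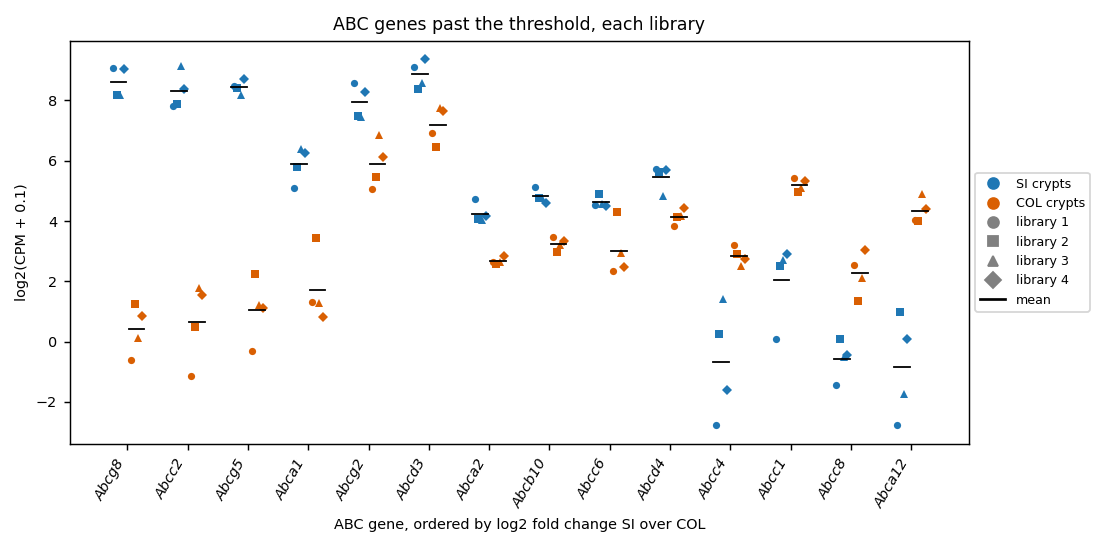
Level of 14 of the 16 called ABC genes (x axis, ordered by log2 fold change) as log2(CPM + 0.1) on the y axis, with each point a library, marker shape giving the library number and each line a group mean. The SI and COL points of all 14 genes are apart, from Abca12 (SI 0.0453 to 1.87 CPM, COL 15.8 to 29.9 CPM) to Abcg8 (SI 290.0 to 543 CPM, COL 0.557 to 2.30 CPM).

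To compare levels between genes, CPM were divided by exon length in kilobases. In SI the highest level per kilobase was that of Abcg5 (129.7 ± 19.4 CPM per kilobase, mean ± SD, n = 4), and next came Abcg8 (110.3 ± 37.7). Abcd3 (73.5 ± 23.00) and Abcb1a (71.5 ± 40.9) lay lower but above the other members named here. Within each of these pairs the means differed by less than the larger SD. In COL the order was led by Abcb1a (102 ± 60.8 CPM per kilobase), Abcc3 (48.1 ± 28.8), Abcf1 (33.2 ± 3.52), Abcd3 (23.6 ± 9.44) and Abcb8 (19.2 ± 8.01). Here Abcb1a and Abcc3, Abcc3 and Abcf1, and Abcd3 and Abcb8 likewise differed by less than the larger SD. Abcg5, Abcg8 and Abcc2 ranked 23, 28 and 29 of 50 in COL.

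Summed by subfamily, the level of ABCG genes was 273 ± 66.1 CPM per kilobase in SI and 9.86 ± 4.66 in COL, which made 36.7% of the level of all 50 genes in SI and 3.21% in COL. ABCD genes summed to 176 ± 53.02 and 31.3 ± 11.6 CPM per kilobase (23.5% and 10.6% of the level). These subfamilies did not overlap between tissues, and with library size alone they still ranged over 164 to 265 against 7.08 to 20.8 (G) and 96.9 to 169 against 18.7 to 59.1 (D) CPM per kilobase. ABCB genes gave 111 ± 38.9 and 128 ± 67.3 CPM per kilobase, overlapping between tissues, and took 15.1% of the level in SI and 41.05% in COL, most of it Abcb1a. ABCC genes gave 80.1 ± 23.6 and 58.9 ± 28.8 (11.1% and 19.03%), also overlapping. With library size alone the order of the ABCC means turned (62.6 ± 20.2 in SI and 77.8 ± 40.9 in COL). ABCA genes gave 17.7 ± 0.675 and 10.3 ± 1.23 (2.45% and 3.76%) and ABCF genes 76.3 ± 6.48 and 56.4 ± 7.73 (10.5% and 20.3%). The A and F sums did not overlap with TMM scaling, but with library size alone both overlapped (A 12.3 to 14.5 and 11.4 to 14.7, F 53.9 to 61.5 and 47.8 to 93.4 CPM per kilobase). Abce1, the member of E, gave 4.78 ± 1.62 and 5.77 ± 1.49 (0.671% and 2.08%). All 50 genes together gave 739 ± 112 in SI and 301 ± 118 in COL. With library size alone this total overlapped between tissues (473 to 683 in SI and 224 to 586 in COL). These sums carry no test, since the called genes above enter them.

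**Figure D4:**
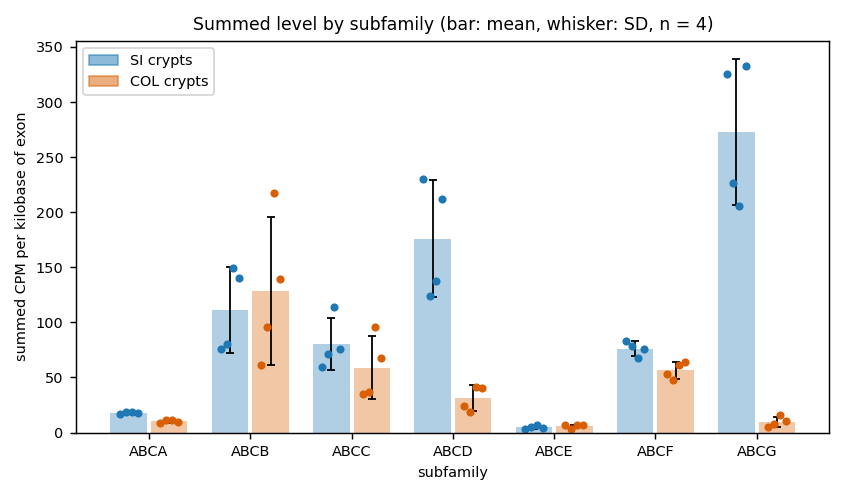
Summed level of the ABC genes in CPM per kilobase of exon (y axis, linear from 0) by subfamily (x axis), with bars for group means, whiskers for SD and a point for each of 4 libraries per tissue. ABCG stands at 273 in SI against 9.86 in COL and ABCD at 176 against 31.3, whereas the points of ABCB and ABCC overlap; the A and F sums overlap when scaled by library size alone.

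Whether the tissue difference depended on sex was tested as an interaction, with 2 libraries per sex and tissue. By edgeR 0 of 34 members and 0% of all genes passed at an adjusted p under 0.05. At an unadjusted p under 0.05, 2 members passed (5.88%, against 5.25% of all genes), Abcc4 and Abca8b. For both the adjusted p by edgeR was 0.909. Within SI both female libraries lay above both male libraries for 12 members (35.3%, against 25.4% of all genes), among them Abcg5, Abcg8, Abcg2, Abcd3 and Abcd4, and below for 7 (20.6%, against 28.6%). Since the female SI libraries were also those of low mitochondrial share, no difference between the sexes can be read from this.

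The regulators and partners of ABC genes were taken from lists of known partners. Of 15 nuclear receptors and other regulators, 3 were higher in SI, 2 higher in COL and 10 not called. Nr1h3 (LXR alpha, which senses oxysterols and drives Abca1, Abcg5 and Abcg8) was higher in SI (log2 fold change 3.03, SE 0.38, adjusted p = 0.000148 by edgeR), as were Nr1i3 (CAR, a xenobiotic sensor; 6.61, adjusted p = 5.40e-05 by edgeR) and Rxra, the shared dimer partner (log2 fold change 1.18, SE 0.24, adjusted p = 0.00343 by edgeR). With library size alone Rxra was not called (adjusted p = 0.183 by edgeR). Nr1h4 (FXR, the bile acid receptor) was higher in COL (log2 fold change -1.22, SE 0.32, adjusted p = 0.0148 by edgeR), a call that was lost without SI3 or without COL3 (adjusted p up to 0.0534 by edgeR). Srebf2, which drives cholesterol synthesis, was likewise higher in COL (log2 fold change -1.63, SE 0.30, adjusted p = 0.00190 by edgeR). With the mouse as a block, Nr1i2 (PXR, a xenobiotic sensor; log2 fold change 0.89, adjusted p = 0.0344 by edgeR) was called higher in SI and Nr5a2, which acts in steroid and bile acid synthesis, higher in COL (-1.65, adjusted p = 0.0222). Nr1h2, Ahr, Nfe2l2, Ppara, Ppard, Hnf4a and Vdr were not called in either fit. Among 9 sterol genes, 3 were higher in SI. They were Npc1l1, the apical cholesterol importer (log2 fold change 9.69, SE 0.99, adjusted p = 4.41e-05 by edgeR), Soat2, which esterifies absorbed cholesterol (log2 fold change 7.99, SE 0.51, adjusted p = 6.51e-06 by edgeR), and Apoa1, the acceptor of cholesterol from Abca1 (log2 fold change 10.52, SE 1.60, adjusted p = 0.000567 by edgeR). Scarb1, Mylip, Srebf1, Npc1 and Npc2 were not called. Apoa1 also counts among the villus enterocyte markers above.

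All 5 bile acid genes passed. The basolateral exporter genes Slc51a (log2 fold change 2.77, SE 0.69, adjusted p = 0.0111 by edgeR) and Slc51b (log2 fold change 2.49, SE 0.43, adjusted p = 0.00136 by edgeR) and the repressor Nr0b2 (log2 fold change 4.16, SE 1.02, adjusted p = 0.0101 by edgeR) were higher in SI. Slc10a2, the apical bile acid importer of the ileum (log2 fold change -5.00, SE 0.68, adjusted p = 0.000249 by edgeR), and Fabp6, its cytosolic binding protein (log2 fold change -4.54, SE 0.87, adjusted p = 0.00242 by edgeR), were higher in COL. Of 11 intracellular partners, 5 were higher in SI, 1 in COL and 5 not called.

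The 16 members under the filter were Abca4, Abca6, Abca8a, Abca9, Abca15, Abca16, Abca17, Abcb4, Abcb5, Abcb6, Abcb11, Abcc9, Abcc12, Abcd2, Abcg3 and Abcg4. They include both canalicular bile transporters of the liver, Abcb11 for bile salts and Abcb4 for phosphatidylcholine, and Abca4, the retinoid transporter of photoreceptors. Summed over the 16, their level was 9.73 CPM in SI2 and 0.754 to 3.66 CPM in the other 7 libraries. SI2 was the highest library for 11 of the 16, and 1 of them had 0 counts there, against 1 to 11 in the others. The same share over all genes under the filter was not taken, so nothing particular to these 16 can be read from it.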

How the data were processed

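RNA was sequenced from crypts of SI and COL of 4 mice. According to the submitters' processing notes and the methods of the study, reads were trimmed with Trimmomatic 0.36 and aligned with STAR 2.5.2b to mm10. The authors deposited raw counts per gene. The annotation release and the strand setting are not given in the sources used here. Of 45706 identifiers, 45143 matched GENCODE vM21 (GRCm38), which gave symbols, coordinates and exon lengths; 563 did not match.

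Libraries were grouped by their labels. Genes were filtered with filterByExpr (10 counts, total 15), scaled by TMM and compared with edgeR 4.0.16 (quasi-likelihood test, Benjamini-Hochberg over 14491 genes). Ratios of counts (0.5 added) were compared by an exact two-sided permutation test. Per the labels, SI and COL libraries with the same number came from the same mouse. The correlations of their deviations from the group means were -0.24, 0.39, -0.079 and 0.33, and the mouse block was an alternative, as were DESeq2 1.42.0, limma-voom 3.58.1, other filters and scalings, a mitochondrial covariate (libraries split at the widest gap of the log2 share) and leaving out libraries. Levels rest on 15969428 or more counts per library, and low values carry counting error. On simulated data of 14491 genes, 91 of 100 genes changed 16-fold and 49 of 100 changed 4-fold were recovered, with 8 false calls. The simulation changed 200 genes, evenly up and down, without mouse or mitochondrial differences, whereas 4116 genes were called in these data. Its false calls therefore do not measure the error of the calls above. Members, lists and tests were chosen with earlier results of these data known. A few genes are not reported here. Every library's value is given for the other tested members of the sterol, apical and organic anion lists and for the other called members.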

Additional observations from a re-analysis of the deposited data

Results flagged for a closer look

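In 13 of 68 groups of 4 libraries, a library lay apart from the other 3 by Dixon's test. Its nominal rate of about 1 in 20 holds for independent, normally distributed values. These groups share the same libraries, and the share over all genes was not taken. No excess particular to ABC genes can therefore be read from this count. In COL, Abca1 stood at 10.8 CPM in COL2, against 1.68 to 2.41 CPM in the other 3, on 173 counts. Abce1, the ribosome splitting factor, stood at 21.3 CPM in COL2, against 38.6 to 40.01 CPM in the other 3, and Abca3 at 20.3 CPM in COL1, against 34.1 to 36.96 CPM in the other 3. In SI, 5 members stood apart in SI2. Abca13 gave 1.93 CPM in SI2, against 0 to 0.203 CPM in the other 3, on 32 counts, and Abca8b 1.99 CPM in SI2, against 0 to 0.0507 CPM in the other 3, on 33 counts. Abca5 gave 1.69 CPM in SI2, against 0.181 to 0.320 CPM in the other 3, Abcc6 29.7 CPM in SI2, against 22.7 to 23.8 CPM in the other 3 and Abcf1 229.7 CPM in SI2, against 177 to 181 CPM in the other 3. In SI1, 4 members stood apart: Abca2 at 26.5 CPM in SI1, against 16.3 to 17.8 CPM in the other 3, Abca7 at 42.9 CPM in SI1, against 29.99 to 32.04 CPM in the other 3, Abcb8 at 122 CPM in SI1, against 93.3 to 97.5 CPM in the other 3 and Abcg1 at 4.98 CPM in SI1, against 1.19 to 1.51 CPM in the other 3. Abcd4 stood at 28.6 CPM in SI3, against 48.8 to 52.95 CPM in the other 3. The cause of these departures was not tested.

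For Abce1 the mean log2 difference of SI over COL differed in sign between the sexes. It was -0.86 in the 2 female mice and 0.27 in the 2 male mice, a female minus male difference of -1.13. The interaction did not pass by edgeR (unadjusted p = 0.118, adjusted p = 0.909), male mouse 3 had 40.4 CPM (SI3) against 40.01 CPM (COL3), and in SI sex and mitochondrial share cannot be told apart.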

How the results depend on the processing

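All 16 calls kept their direction and their side of the threshold with relative log expression size factors, DESeq2, limma-voom, no filter, mitochondrial genes removed, and mitochondrial level as a covariate. The replicate block by mouse changed no call of a member: 12 members were higher in SI and 4 in COL with it, by edgeR and by limma-voom. With library size alone 12 of the 16 calls remained (those lost include Abcc6, Abcd3 and Abcd4), 8 members were higher in COL and the median log2 fold change of members was -0.36. With at least 10 counts in every library, Abca12, Abcc4 and Abcc8 were not tested and 1 member was higher in COL. Against a log2 change of 1, 11 calls remained. Leaving out both libraries of mouse 2 kept 15. That alternative and the fits within libraries of high (12 kept) and low (16 kept) mitochondrial share were chosen after the data were seen.

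The ratios 8.22 (Abcc2 to Abcc3), -0.87 (Abcg5 to Abcg8) and 5.04 (Abca1 to Abcg1) keep their value under the replicate block, where an exact sign-flip test of 4 pairs cannot go below 0.125 and gave that p for each. Leaving out each library gave -1.01 to -0.72 for Abcg5 to Abcg8, not past 0.05 without SI1, SI3, SI4, COL2 or COL3, and 4.69 to 5.76 for Abca1 to Abcg1, not past 0.05 without COL1, COL3 or COL4. By CPM without length, shares of the summed level were 4.40% (A), 16.3% (C), 8.35% (F) and 28.3% (G) in SI and 6.05%, 21.9%, 14.2% and 4.23% in COL.

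Signs turned for uncalled members alone. With library size alone log2 fold changes were -0.52 (Abca13), -0.61 (Abca3), -0.40 (Abca7), -0.38 (Abca8b), -0.038 (Abcb1b), -0.62 (Abcb8), -0.35 (Abcf1) and -0.74 (Abcf2). Abca13 also gave -0.014, -0.028, -0.038, -0.057 and -0.56 with relative log expression factors, DESeq2, no filter, mitochondrial genes removed and the covariate. With limma-voom, the block in edgeR and the block in limma-voom, Abca13 gave -0.88, -0.69 and -0.53, Abca8b -1.98, -2.01 and -1.36 and Abcc10 0.029, 0.013 and 0.016. Abca8b gave -0.85 with the covariate, and without mouse 2 Abca8b gave -3.93 and Abcc10 0.12. Abcf2 gave -0.038 with 10 counts in every library and -0.016 with mitochondrial genes removed. Leaving out each library gave -2.01 to 0.71 (Abca13), -0.030 to 0.23 (Abca3), -4.32 to 0.72 (Abca8b), -0.15 to 0.16 (Abcc10) and -0.12 to 0.33 (Abcf2). Apart from what follows from fewer genes or libraries, the cause was not tested. Depth limits the lowest members: in COL, Abcg5, Abcg8 and Abcc2 rest on few counts, and 16 members could not be tested.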
